A study of Mus musculus with 22 samples.

Results

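The comparison described here is that of heart ventricles with and without deletion of Lin9, the gene of a subunit of the MuvB complex, in the second of 2 RNA-seq experiments on mouse embryos. It holds 6 libraries, 3 of LIN9 KO and 3 of LIN9 wt ventricles, of the 22 samples of the series, of which 18 are RNA-seq libraries. The ventricles were taken at E13.5, in mid-gestation. LIN9 KO ventricles came from Nkx2.5-Cre embryos with 2 floxed copies of Lin9 (exon 7 lies between the loxP sites), and LIN9 wt ventricles from Nkx2.5-Cre embryos that the study's text gives as Lin9 fl/+ and the labels call wild-type, so that the controls carried the Cre and may have lost 1 copy. Both groups were wild-type for Sav1. Nkx2.5-Cre is active in cardiac precursor cells and in the cardiomyocytes they form, while blood and most other cells that enter the heart from elsewhere do not descend from these precursors. Each library is bulk RNA of whole ventricular tissue, isolated in triplicate. The study's text describes the LIN9 comparison as biological replicates that were each run in triplicate, and nothing in the labels says which embryos or litters the libraries came from. The p-values measure only the spread between libraries of the same group, and how much of it is technical is not known. The LIN9 KO libraries did not hold the same RNA, since the Y-linked gene Eif2s3y was at 0, 25.3 and 60.4 CPM (counts scaled to a common library size) in them. The other 6 libraries of the same experiment, with Sav1 deleted, entered only the gene filter, the scaling and the estimate of the spread.

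MuvB is a core of 5 proteins, LIN9, LIN37, LIN52, LIN54 and RBBP4, that sits on the promoters of cell cycle genes. In resting cells it joins the pocket proteins and E2F4 with a DP subunit in the DREAM complex, which keeps these genes off. In cycling cells it binds B-MYB (Mybl2) and later FOXM1 and switches on the genes of the G2 phase and mitosis. In the ventricle at this stage, growth of the wall depends on dividing cardiomyocytes, which at the same time assemble sarcomeres and begin to enlarge their mitochondrial capacity.

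Total counts ranged from 2912330 to 2940111 in LIN9 wt and from 2770741 to 2999877 in LIN9 KO libraries. All levels are CPM scaled with TMM factors, in the order of replicates 1, 2 and 3. LIN9 KO replicate 3 stood apart in 18S ribosomal RNA, with Rn18s-rs5 at 20025 CPM against 827 and 1164 CPM in the other LIN9 KO and 4383 to 6530 CPM in the LIN9 wt libraries. Levels of some genes with long transcripts varied widely between libraries of 1 genotype. Cenpf, a kinetochore protein gene with 15433 exonic bases, was at 23.3, 135 and 146 CPM in LIN9 wt and at 20.7, 53.1 and 77.9 CPM in LIN9 KO libraries, lowest in replicate 1 of both genotypes. Ttn, the gene of the giant sarcomere protein titin, was at 1714, 3689.5 and 3743 CPM in LIN9 wt and at 571, 816 and 1924 CPM in LIN9 KO libraries, with replicate 3 above the other 2. Y-linked genes varied within groups. Ddx3y was at 2.63, 40.0 and 83.1 CPM in LIN9 KO and at 29.9 to 65.8 CPM in LIN9 wt libraries, and 0 of the 4 Y-linked genes tested passed the threshold. The labelled tissue was checked against its markers in the LIN9 wt libraries. Per kilobase, the ventricular light chain Myl2 was at 2107 to 2346 CPM, cardiac troponin T (Tnnt2) at 542 to 561 CPM and the endothelial marker Pecam1 at 23.7 to 28.8 CPM. Atrial markers were present as well, with a median of 37.5 CPM per kilobase over 10 genes against 387 for the ventricular and 10.99 for the endothelial list. The atrial light chain Myl7 was at 922 to 1280 and Myl4 at 398 to 442 CPM per kilobase, and at the low end were Sln (3.67 to 8.32), Nr2f2 (4.33 to 6.36) and Nr2f1 (2.35 to 3.33).

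Lin9 (ENSMUSG00000058729, chromosome 1) was at 29.3, 28.1 and 23.2 CPM in LIN9 wt and at 13.1, 15.4 and 17.9 CPM in LIN9 KO libraries. Every LIN9 KO library lay below every LIN9 wt library, and the level fell to 0.575 of that in LIN9 wt (log2 fold change -0.80, standard error 0.19, adjusted p = 0.0027). Counts cover the whole gene and not only exon 7, and the tissue holds cells in which the Cre is not active, so this value is no measure of recombination. Of the 14 genes listed for the MuvB core and its partners, 4 were lower and 1 was higher (median log2 fold change -0.09). These are shares of 28.6% and 7.14%, against 10.5% lower and 12.8% higher among all genes tested. The 4 lower genes include Lin9, the deleted gene, whose fall follows from the design. Rbl1, which encodes a pocket protein of DREAM, went from 69.1, 70.9 and 71.9 CPM to 55.2, 48.2 and 48.8 CPM (-0.48, adjusted p = 0.00157). E2f4, the repressor E2F of DREAM, had -0.43 (adjusted p = 0.0235), and Tfdp2, a DP subunit, rose by 0.51 on the log2 scale (adjusted p = 0.00134). The count of 4 lower genes fell to 2 without LIN9 wt replicate 3 or without LIN9 KO replicate 2, and also by DESeq2. E2f4 lost its call by DESeq2 and without LIN9 wt replicate 1 or 3 or LIN9 KO replicate 2 or 3. The other core subunits did not pass the threshold, with Lin37 at 0.07, Lin52 at -0.44, Lin54 at 0.09 and Rbbp4 at -0.28 on the log2 scale. B-MYB itself (Mybl2) was at 27.6, 32.5 and 25.9 CPM against 36.8, 28.9 and 31.7 CPM, with overlapping groups (0.18, adjusted p = 0.457).

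Of 17675 genes tested, 4103 (23.2%) differed between LIN9 KO and LIN9 wt ventricles at an adjusted p under 0.05. Of these, 2254 (12.8% of all genes tested) were higher and 1849 (10.5%) lower in LIN9 KO, and the median log2 fold change over all genes was 0.01. The counts of higher and lower genes in each gene list are to be read against these 12.8% and 10.5%. The libraries of both groups did not overlap for 6207 genes (35.1%), 3245 of them higher (18.4%) and 2962 lower (16.8%) in LIN9 KO. A change of at least 1 on the log2 scale was seen for 811 of the higher and 284 of the lower genes. The plot of all genes tested shows this spread against the mean level.

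**Figure D1:**
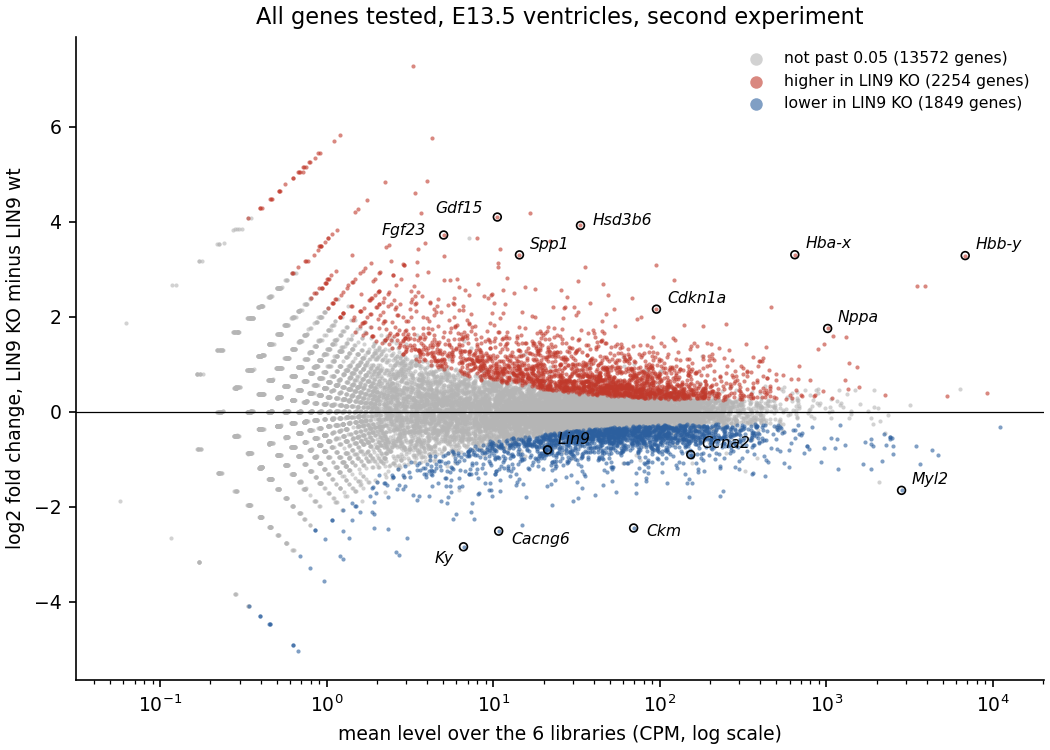
Log2 fold change (LIN9 KO minus LIN9 wt) of each of the 17675 genes tested against its mean level over the 6 libraries in CPM (log scale), with genes past an adjusted p of 0.05 in red (2254 higher) or blue (1849 lower). Named genes are circled, from Ky at -2.84 to Gdf15 at 4.10, and the fitted fold changes of genes under about 1 CPM rest on few reads.

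The largest falls are those among genes with a mean of at least 5 CPM and groups that did not overlap. Ky, which encodes a cytoskeletal protein needed for muscle growth, went from 14, 10.3 and 10.7 CPM to 2.30, 1.31 and 1.12 CPM (log2 fold change -2.84, standard error 0.35, adjusted p = 6.83e-07). Ckm, the muscle form of creatine kinase, went from 131, 117 and 105 CPM to 27.6, 20.0 and 16.8 CPM (-2.44, standard error 0.14, adjusted p = 7.58e-13). Both genes were lower in each LIN9 KO library by a wide margin. Cacng6, a calcium channel gamma subunit, changed by -2.51, Kcnc2, a potassium channel, by -2.26, and Prkag3, a regulatory subunit of AMP-activated kinase known from skeletal muscle, by -2.11. The noncoding gene model that the table lists under the symbol Lsmem2 (ENSMUSG00000103409, a lincRNA) changed by -1.93. The other 4 of the 10 largest falls were Slc26a10 (-2.37), the antisense gene Gm13111 (-2.26), Tmem88b (-2.15) and Slitrk5 (-1.96). Other genes lie over 15.5% of the exonic length of Ckm and 17.8% of that of Slc26a10, and without a stated strand their reads cannot be told apart.

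The 10 largest rises were larger in size than the 10 largest falls. Gdf15, a secreted stress cytokine, went from 1.33, 1.03 and 1.04 CPM to 23.3, 23.9 and 12.7 CPM (log2 fold change 4.10, standard error 0.34, adjusted p = 8.18e-10). Hsd3b6, a steroid dehydrogenase, went from 4.32, 5.14 and 2.77 CPM to 42.7, 73.2 and 72.0 CPM (3.92, standard error 0.47, adjusted p = 0.000277). No LIN9 wt library of these genes came near the lowest LIN9 KO library. Fgf23, a hormone of phosphate balance, rose by 3.72 on the log2 scale, with 0.332, 1.37 and 0.346 CPM in LIN9 wt and 11.5, 12.1 and 4.47 CPM in LIN9 KO libraries. Uts2b, a vasoactive peptide (3.66), A2m, a protease inhibitor (3.43), and Spp1, the matrix protein osteopontin (3.30), followed, and other genes lie over 18.8% of the exonic length of Spp1. Also among the 10 largest rises were genes of red blood cells, Ermap (3.60), Hba-x (3.31) and Hbb-y (3.29).

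Genes of mitosis are activated by MuvB with B-MYB and FOXM1. Of 26 regulators of mitotic entry and anaphase that were tested, 11 were lower and 0 higher, and the median log2 change of the list was -0.31. Ccnb1, the mitotic cyclin B1, went from 93.4, 101 and 102 CPM to 50.0, 47.9 and 55.2 CPM (-0.95, standard error 0.11, adjusted p = 2.38e-07). Ccna2, cyclin A2, went from 207, 182 and 209 CPM to 116, 108 and 96.6 CPM (-0.90, standard error 0.10, adjusted p = 1.67e-07), with other genes over 12.5% of its exonic length. For both cyclins the highest LIN9 KO library lay far below the lowest LIN9 wt library. The mitotic kinases Aurka (-0.65) and Plk1 (-0.64) also fell, as did Cdc20 (-0.48), the activator of the anaphase-promoting complex. Cdk1, the partner of both cyclins, was at 165, 152 and 164 CPM against 159.7, 133 and 130.1 CPM and did not pass the threshold (-0.19, adjusted p = 0.205). Without LIN9 KO replicate 1, 3 members of this list were called higher.

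Of 30 genes of cytokinesis and the spindle, 10 were lower and 2 higher (median -0.34). Kif23, a kinesin of the spindle midzone, went from 109, 128 and 126 CPM to 62.1, 75.4 and 75.7 CPM (-0.77, standard error 0.11, adjusted p = 7.7e-06), and Troap (-0.78) and Fam83d (-0.70), which act at the spindle, also fell. Psrc1, a microtubule-binding protein gene that is also a p53 target, went the other way, from 25.6, 25.0 and 23.2 CPM to 52.3, 51.2 and 49.2 CPM (1.05, adjusted p = 7.91e-07). The count of 2 higher genes was 1 without LIN9 wt replicate 1 or without LIN9 KO replicate 2. Of 39 kinetochore and chromosome condensation genes, 7 were lower and 1 higher (median -0.15), shares of 17.9% and 2.56% against 10.5% and 12.8% of all genes. The centromere proteins Cenpm (-0.94) and Cenpa (-0.58) and the passenger complex subunit Cdca8 (-0.66) fell, and Zwilch, of the mitotic checkpoint, rose by 0.61 on the log2 scale. Without LIN9 KO replicate 3, 2 genes of this list were called higher, and a replicate block on the 6 libraries alone gave 14 lower and 2 higher.

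Of 13 cell cycle genes with qPCR primers in the study that were tested, 5 were lower and 0 higher (median -0.39). The study's text names Cenpf, Nusap1, Top2a and Birc5 as targets of MuvB with B-MYB. By RT-qPCR it reports a set of cell cycle genes as lower in Lin9 mutant hearts, without listing them in the text. How the primer genes were chosen is not stated, so they are not taken as independent evidence of a direction. The 5 lower genes were Ccna2, Kif23, Ect2 (-0.46), Nusap1 (-0.42) and Top2a (-0.39). The last 3 lost their calls without LIN9 wt replicate 3, which leaves 2 of the 5, and Top2a also without LIN9 KO replicate 1 and in a fit of the 6 libraries alone. Birc5, the survivin gene, was at 89.1, 85.3 and 96.8 CPM against 83.8, 81.0 and 82.4 CPM, all LIN9 KO below all LIN9 wt libraries, but the change of -0.13 did not pass the threshold (adjusted p = 0.385). Foxm1 (-0.13), Anln (-0.16) and Gas2l3 (-0.01) also did not pass it. Cenpf (-1.01, adjusted p = 0.368), Aspm (-0.67, adjusted p = 0.307) and Casc5 (-0.26, adjusted p = 0.813) have long transcripts and were lowest in replicate 1 of both genotypes, and their groups overlapped. When the replicate number was entered as a block on the 6 libraries alone, Cenpf (-0.94) and Aspm (-0.68) passed the threshold. The plot of cell cycle genes by library shows these values.

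**Figure D2:**
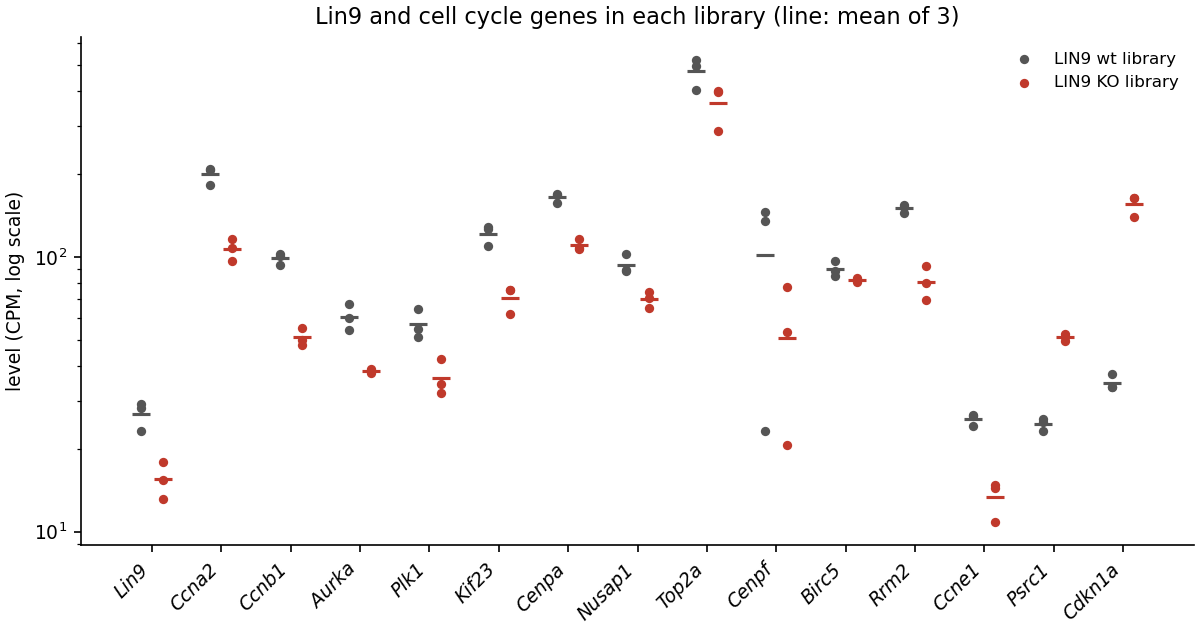
Level of 15 genes in each library in CPM (log scale), with LIN9 wt in grey, LIN9 KO in red and a line at the mean of 3 libraries. Ccna2, Ccnb1, Kif23 and Rrm2 separate the genotypes without overlap, Birc5 hardly differs, Cenpf overlaps with 1 low library in each genotype, and Psrc1 and Cdkn1a lie higher in all 3 LIN9 KO libraries.

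MuvB reaches mitotic promoters through LIN54, which binds the cell cycle genes homology region (CHR). The letters TTTGAA and TTCGAA were searched on both strands of promoter windows of 300 bases, 250 before and 50 after the transcript start (RefSeq, GRCm38.p6). At least 1 match was found for 20 of the 26 genes of the 3 mitotic lists that were lower in LIN9 KO and had a window (76.9%). Among members of these lists that were not called, the share was 75.5% (37 of 49), and among all tested genes with a window 16.8% (1963 of 11657). Of all windows of the table, 19.2% held a match. Over all genes lower in LIN9 KO the share was 18.5%, and over all genes higher 14%. A short word of this kind occurs by its letters alone in many windows, and a match is not a measured binding site. The windows of the 4 lower mitotic genes with the largest falls among those with a match are printed here with the CHR letters in capitals. In Cenpm they begin at base -83 from the start, in Fam83d at -50, on the opposite strand, in Kif23 at +3 and in Cdca8 at +14. The windows of Ccnb1 and Troap held neither word.
Cenpm, chr15:82244287-82244586, minus strand: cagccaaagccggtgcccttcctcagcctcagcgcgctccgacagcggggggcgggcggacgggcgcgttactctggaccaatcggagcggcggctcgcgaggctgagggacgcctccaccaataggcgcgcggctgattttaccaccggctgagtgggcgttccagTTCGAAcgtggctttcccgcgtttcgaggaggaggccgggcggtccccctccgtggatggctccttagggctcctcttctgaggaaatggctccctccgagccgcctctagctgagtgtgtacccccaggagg
Kif23, chr9:61946750-61947049, minus strand: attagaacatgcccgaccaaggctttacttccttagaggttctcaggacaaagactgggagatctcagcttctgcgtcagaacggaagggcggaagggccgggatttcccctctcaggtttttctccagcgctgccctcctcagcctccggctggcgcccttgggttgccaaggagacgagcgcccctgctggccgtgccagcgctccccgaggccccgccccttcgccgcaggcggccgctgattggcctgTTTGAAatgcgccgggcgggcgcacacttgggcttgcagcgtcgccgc
Fam83d, chr2:158767849-158768148, plus strand: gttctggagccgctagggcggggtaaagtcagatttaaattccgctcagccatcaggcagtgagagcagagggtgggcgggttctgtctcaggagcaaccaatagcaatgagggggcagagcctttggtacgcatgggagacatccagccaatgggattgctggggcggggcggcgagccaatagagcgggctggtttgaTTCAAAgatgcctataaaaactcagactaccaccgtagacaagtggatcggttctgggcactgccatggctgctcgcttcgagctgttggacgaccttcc
Cdca8, chr4:124936868-124937167, minus strand: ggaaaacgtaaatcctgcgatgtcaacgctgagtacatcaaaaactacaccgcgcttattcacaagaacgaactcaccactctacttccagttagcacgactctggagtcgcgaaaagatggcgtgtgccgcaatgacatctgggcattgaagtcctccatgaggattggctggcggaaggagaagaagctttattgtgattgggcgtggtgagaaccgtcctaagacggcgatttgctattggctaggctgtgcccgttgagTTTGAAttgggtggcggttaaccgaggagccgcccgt

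Of 62 genes of DNA replication and nucleotide supply, which are under E2F control, 9 were lower and 2 higher (median -0.15), where 10.5% of all genes were lower. Rrm2, a subunit of ribonucleotide reductase, went from 152, 155 and 144 CPM to 92.7, 69.9 and 80.2 CPM (-0.89, standard error 0.11, adjusted p = 7.54e-07), and Ccne1, cyclin E1, from 26.3, 24.3 and 26.6 CPM to 14.5, 14.8 and 10.8 CPM (-0.94, standard error 0.18, adjusted p = 0.000257). Dut (-0.63) and Pcna (-0.54), the sliding clamp of the replication fork, also fell. The helicase subunits Mcm3 (-0.14), Mcm4 (-0.20) and Mcm5 (-0.21) did not pass the threshold. The number of lower genes depended on single libraries, with 16 without LIN9 KO replicate 1, 4 without LIN9 KO replicate 2 and 5 without LIN9 KO replicate 3, and it was 16 with a replicate block on the 6 libraries alone and 5 by DESeq2. The 2 higher genes became 0 without LIN9 wt replicate 2, 4 without LIN9 KO replicate 1 and 1 without any of the other 4 libraries.

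Targets of p53 moved the other way. Of 34 tested, 22 were higher and 4 lower, with a median log2 fold change of 0.62. Cdkn1a, the cell cycle inhibitor p21, went from 33.6, 37.3 and 33.5 CPM to 164, 164 and 139 CPM (log2 fold change 2.16, standard error 0.12, adjusted p = 4.66e-13). Pmaip1, the pro-apoptotic protein NOXA, went from 1.66, 2.74 and 2.42 CPM to 16.1, 23.0 and 17.9 CPM (3.04, standard error 0.31, adjusted p = 2.64e-08). Eda2r, a death receptor of the TNF family, rose by 2.76 on the log2 scale, with 5.82 to 10.7 CPM in LIN9 wt and 47.7 to 65.2 CPM in LIN9 KO libraries. For these 3 genes the genotypes lay several-fold apart in every library. Ccng1 (0.97) and Mdm2 (0.40), the ubiquitin ligase of p53, rose less in size. Rrm2b (-0.63) was among the 4 lower members. Of 19 genes of the apoptosis machinery, 6 were higher, among them Bbc3 (PUMA, 1.02) and Apaf1 (0.93), and 1 was lower, with 0 lower without LIN9 wt replicate 3. Some of these genes stand in both lists. Of 12 G1 cyclins and CDK inhibitors, 4 were higher and 3 lower, and Cdkn1c (p57), for which other genes lie over 30.7% of the exonic length, fell from 382, 334 and 340.0 CPM to 308, 227 and 218 CPM (-0.49, adjusted p = 0.00198). The count of 4 was 2 without LIN9 wt replicate 2 or 3 or LIN9 KO replicate 2, and the count of 3 was 1 without LIN9 wt replicate 1.

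Mitochondrial genes fell across all parts of respiration. Of 35 genes of complex I, 28 were lower and 0 higher (median -0.60), of 41 genes of complexes II to V, 37 were lower and 1 higher (median -0.57), and of 13 mRNAs encoded by mitochondrial DNA, 13 were lower (median -0.86), where 10.5% of all genes were lower. Cyc1, the cytochrome c1 subunit, went from 421, 380.3 and 374 CPM to 217, 149 and 163 CPM (-1.15, standard error 0.11, adjusted p = 9.73e-09), and Cycs, cytochrome c, changed by -1.05. In complex I, Ndufb2 (-0.93), Ndufa12 (-0.86) and Ndufc1 (-0.85) had the largest falls among members of at least 5 CPM. The mitochondrial mRNA mt-Nd1 went from 4458, 5168 and 5164 CPM to 2377, 2059.7 and 2519 CPM (-1.09, standard error 0.14, adjusted p = 1.47e-05). The share of counts on mitochondrial DNA was 3.88 to 4.86% in LIN9 wt and 2.63 to 3.54% in LIN9 KO libraries. Cox4i2, the hypoxia-inducible form of a cytochrome c oxidase subunit, was the exception among complexes II to V. It went from 4.99, 5.48 and 4.84 CPM to 29.3, 35.8 and 26.8 CPM (2.58, standard error 0.23, adjusted p = 3.29e-09).

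In the citric acid cycle, 23 of 26 genes fell and 1 rose (median -0.62). Idh3a, the rate-limiting isocitrate dehydrogenase subunit, went from 394, 412 and 389.8 CPM to 224, 177 and 183 CPM (-1.03, standard error 0.10, adjusted p = 7.93e-09), while Pcx, pyruvate carboxylase, rose by 1.36 on the log2 scale. Of 30 genes of fatty acid uptake and oxidation, 19 were lower and 1 higher (median -0.44). Acadm, which starts the oxidation of medium-chain fatty acids, went from 235, 238 and 229 CPM to 122, 113 and 122 CPM (-0.98, standard error 0.09, adjusted p = 1.01e-08), and Eci1 (-1.19) and Acaa2 (-0.95) also fell. The single higher member was Slc27a1, a fatty acid transporter (0.64). Of 17 regulators of mitochondrial biogenesis, 6 were lower and 1 higher. Ppargc1a, the coactivator PGC-1 alpha, went from 119.7, 137 and 159 CPM to 70.7, 106 and 86.9 CPM (-0.65, adjusted p = 0.00314), and Ppard rose by 0.79 on the log2 scale. Of 71 mitochondrial ribosomal proteins 33 were lower and 0 higher (median -0.37), 20 without LIN9 wt replicate 1 or without LIN9 KO replicate 2 and 20 by DESeq2. Of 77 cytosolic ribosomal proteins 0 were lower and 6 higher (median 0.14), a share of 7.79% higher that lies below the 12.8% of all genes, and 0 were higher without LIN9 wt replicate 2 or 3 or without LIN9 KO replicate 2 and 1 without LIN9 KO replicate 1, 2 by DESeq2 and 20 with a replicate block on the 6 libraries alone. In the creatine system, the fall of Ckm came with rises of Ckb, the brain form of the kinase (0.78), and Ckmt2, the mitochondrial form (1.55), with 3 lower and 2 higher of 6 tested.

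Glycolysis did not follow the mitochondrial genes. Of 30 genes of glucose uptake and glycolysis, 8 were higher and 5 lower (median 0.09), and Gapdh (0.03), Pkm (0.02) and Ldha (0.10) did not pass the threshold. The glucose transporter Slc2a3 went from 47.9, 49.0 and 40.5 CPM to 141, 159.8 and 109 CPM (log2 fold change 1.58, standard error 0.18, adjusted p = 1.24e-05), and Pfkfb3, the activator of phosphofructokinase (1.21), and the hexokinase Hk2 (0.93) also rose. The count of 8 was 5 without LIN9 KO replicate 2.

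Several of these genes are targets of the hypoxia-inducible factors. Of 20 genes of the hypoxia response that were tested, 15 were higher and 0 lower (median 0.83), against 12.8% higher among all genes. P4ha1, a prolyl hydroxylase of collagen, went from 105, 104 and 118 CPM to 382, 435 and 358 CPM (1.84, standard error 0.11, adjusted p = 7.58e-13), and Egln3, an oxygen sensor that is itself induced in hypoxia, from 30.3, 28.1 and 34.2 CPM to 113, 159.8 and 96.2 CPM (2.00, standard error 0.26, adjusted p = 0.000328). Ndrg1 (2.42), P4ha2 (1.55) and Vegfa (1.14) also rose. LIN9 KO replicate 2 had the highest level of Egln3, P4ha1 and Vegfa among the 3. The mRNA of Hif1a itself was at 19.3, 23.0 and 23.9 CPM against 17.1, 28.9 and 20.1 CPM (0.00, adjusted p = 0.998). The core letters of the hypoxia response element, ACGTG on either strand, were found in the windows of 10 of the 12 higher members that had one (83.3%) and in 3 of 4 of those not called (75%), against 28.0% of all tested genes and 19.6% of all windows. The windows of Egln3 and P4ha1 are printed with these letters in capitals, as the 2 higher members with the largest rises among those with a match. They begin at base -229 in Egln3 and, on the opposite strand, at base -16 in P4ha1.
Egln3, chr12:54203825-54204124, minus strand: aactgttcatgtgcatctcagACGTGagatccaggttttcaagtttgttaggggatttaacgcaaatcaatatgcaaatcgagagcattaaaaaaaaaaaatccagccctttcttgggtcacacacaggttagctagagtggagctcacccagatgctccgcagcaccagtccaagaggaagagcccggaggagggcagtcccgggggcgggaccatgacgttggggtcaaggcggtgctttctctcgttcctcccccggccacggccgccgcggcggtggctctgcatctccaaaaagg
P4ha1, chr10:59323046-59323345, plus strand: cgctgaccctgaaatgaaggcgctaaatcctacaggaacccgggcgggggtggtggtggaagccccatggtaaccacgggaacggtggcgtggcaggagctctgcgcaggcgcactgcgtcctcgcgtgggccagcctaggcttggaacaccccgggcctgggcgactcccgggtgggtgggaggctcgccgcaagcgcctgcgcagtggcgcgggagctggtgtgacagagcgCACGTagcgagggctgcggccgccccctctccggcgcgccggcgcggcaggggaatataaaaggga

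Gdf15 is one of the targets of the integrated stress response, in which phosphorylated eIF2 favours translation of ATF4. Of 35 genes of this list, 13 were higher and 4 lower (median 0.25). The share higher was 37.1% against 12.8% of all genes, and the share lower, 11.4%, was near the 10.5% of all genes. The pseudokinase Trib3 went from 2.33, 1.37 and 2.77 CPM to 13.1, 16.4 and 12.7 CPM (log2 fold change 2.69, standard error 0.33, adjusted p = 7.22e-07), and Ddit4 (1.40), an inhibitor of mTORC1, Stc2 (1.33) and Ddit3 (CHOP, 1.19) also rose. Psat1, of serine synthesis, fell from 102, 92.8 and 91.3 CPM to 61.8, 49.5 and 44.4 CPM (-0.87, adjusted p = 4.64e-06), Phgdh (-0.28) and Asns (-0.11) did not pass the threshold, and neither did Atf4 (-0.01); these 4 were named after their values were seen. The composite element of ATF4 and C/EBP, TGATGNAA on either strand, matched the windows of 3 of 13 higher members (23.1%) and of 6 of 15 members not called (40.0%), against 2.81% of all tested genes and 3.97% of all windows. The window of Trib3 is printed as that of the higher member with the largest rise among those with a match, which lies on the opposite strand from base +15, with its letters in capitals.
Trib3, chr2:152344011-152344310, minus strand: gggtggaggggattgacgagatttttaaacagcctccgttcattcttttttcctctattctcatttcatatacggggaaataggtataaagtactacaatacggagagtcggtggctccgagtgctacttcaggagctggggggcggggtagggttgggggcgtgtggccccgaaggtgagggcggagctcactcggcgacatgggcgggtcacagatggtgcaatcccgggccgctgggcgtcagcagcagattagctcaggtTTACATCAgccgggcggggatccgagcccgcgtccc

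Among other stress genes, 9 of 21 NRF2 and antioxidant genes were higher and 4 lower (median 0.17). Hmox1, heme oxygenase, went from 18, 19.9 and 16.9 CPM to 71.3, 94.1 and 64.1 CPM (2.07, standard error 0.15, adjusted p = 7.5e-11), while Sod2, the mitochondrial superoxide dismutase, fell by 0.83 on the log2 scale. Of 17 chaperones and proteases, 5 were lower and 1 higher. Hspd1, the mitochondrial chaperonin, went from 323, 355 and 336 CPM to 189.6, 181 and 188 CPM (-0.86, adjusted p = 8.84e-08), and Hspb1 changed by -0.87. The single higher gene, the heat shock gene Hspa1b, was at 13.8, 44.9 and 8.57 CPM in LIN9 KO against 3.66 to 4.15 CPM in LIN9 wt libraries, and its call was lost without any 1 of the 3 LIN9 wt libraries and in a fit of the 6 libraries alone, while 2 genes were higher without LIN9 KO replicate 3 or with a replicate block on the 6 libraries alone. Of 7 metallothionein and zinc response genes, 3 were higher and 1 lower, and Mt1 went from 33.6, 27.8 and 27.3 CPM to 67.7, 93.8 and 70.5 CPM (1.39, adjusted p = 4.57e-08). The single lower gene, Mtf1 (-0.53), was not called by DESeq2 and without LIN9 wt replicate 1 or LIN9 KO replicate 3.

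Contractile genes fell. Of 49 sarcomere and Z-disc genes tested, 30 were lower and 2 higher (median -0.67). Myl2, the ventricular regulatory light chain, went from 4575, 4108 and 4169.9 CPM to 1571, 1333 and 1187 CPM (log2 fold change -1.65, standard error 0.12, adjusted p = 1.84e-10), and Tnnt1, the slow skeletal troponin T, from 373, 309 and 382 CPM to 114, 94.1 and 105 CPM (-1.76, adjusted p = 5.71e-12). The Z-disc genes Nrap (-1.49) and Tcap (-1.46) and cardiac troponin I, Tnni3 (-1.05), also fell. For all of these the LIN9 KO libraries lay below the LIN9 wt libraries. Ttn had -1.47 and Myh6, the alpha heavy chain, -0.45, and neither passed the threshold (adjusted p = 0.0627 and 0.292). Myom2, an M-band protein of adult fast and cardiac muscle, went the other way, from 13, 12.7 and 10.7 CPM to 45.4, 56.7 and 55.2 CPM (2.11, standard error 0.21, adjusted p = 8.84e-08). Trim54 was the other higher gene (1.17), and 1 of these 2 calls was lost without LIN9 wt replicate 2 or without LIN9 KO replicate 1.

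The genes of excitation went both ways. Of 29 calcium handling genes, 6 were lower and 6 higher (median -0.02). Each is a share of 20.7%, against 10.5% lower and 12.8% higher among all genes. Camk2a, a calmodulin-dependent kinase, went from 265, 256 and 249 CPM to 116, 110.2 and 101 CPM (-1.24, standard error 0.10, adjusted p = 5.98e-10), and Atp2a2, the calcium pump SERCA2, changed by -0.70. Hrc, a calcium-binding protein of the sarcoplasmic reticulum, rose by 0.91 on the log2 scale, and Ryr2, the calcium release channel, had -0.39 (adjusted p = 0.278). The count of 6 higher genes was 2 without LIN9 wt replicate 2 or 3, and 10 genes of this list were lower once a replicate block was added. Of 29 potassium, sodium and pacemaker channel genes, 8 were lower and 7 higher. Scn3b, a sodium channel beta subunit, went from 0.665, 1.37 and 0.692 CPM to 8.55, 10.8 and 8.2 CPM (3.28, standard error 0.48, adjusted p = 9.84e-06). Kcnd3, of the transient outward current, changed by -1.31. The count of 7 higher genes was 4 without LIN9 wt replicate 2 or LIN9 KO replicate 2. Of 17 genes of the intercalated disc, 3 were lower (17.6%, against 10.5% of all genes) and 0 higher. Gja1, the gap junction protein connexin 43, went from 529, 577 and 564 CPM to 328, 294 and 253 CPM (-0.93, adjusted p = 1.1e-07), and Cdh2, N-cadherin (-0.63), and Pkp2, plakophilin (-0.49), followed. Without LIN9 KO replicate 3, 5 genes of this list were lower, and 8 with a replicate block on the 6 libraries alone.

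**Figure D3:**
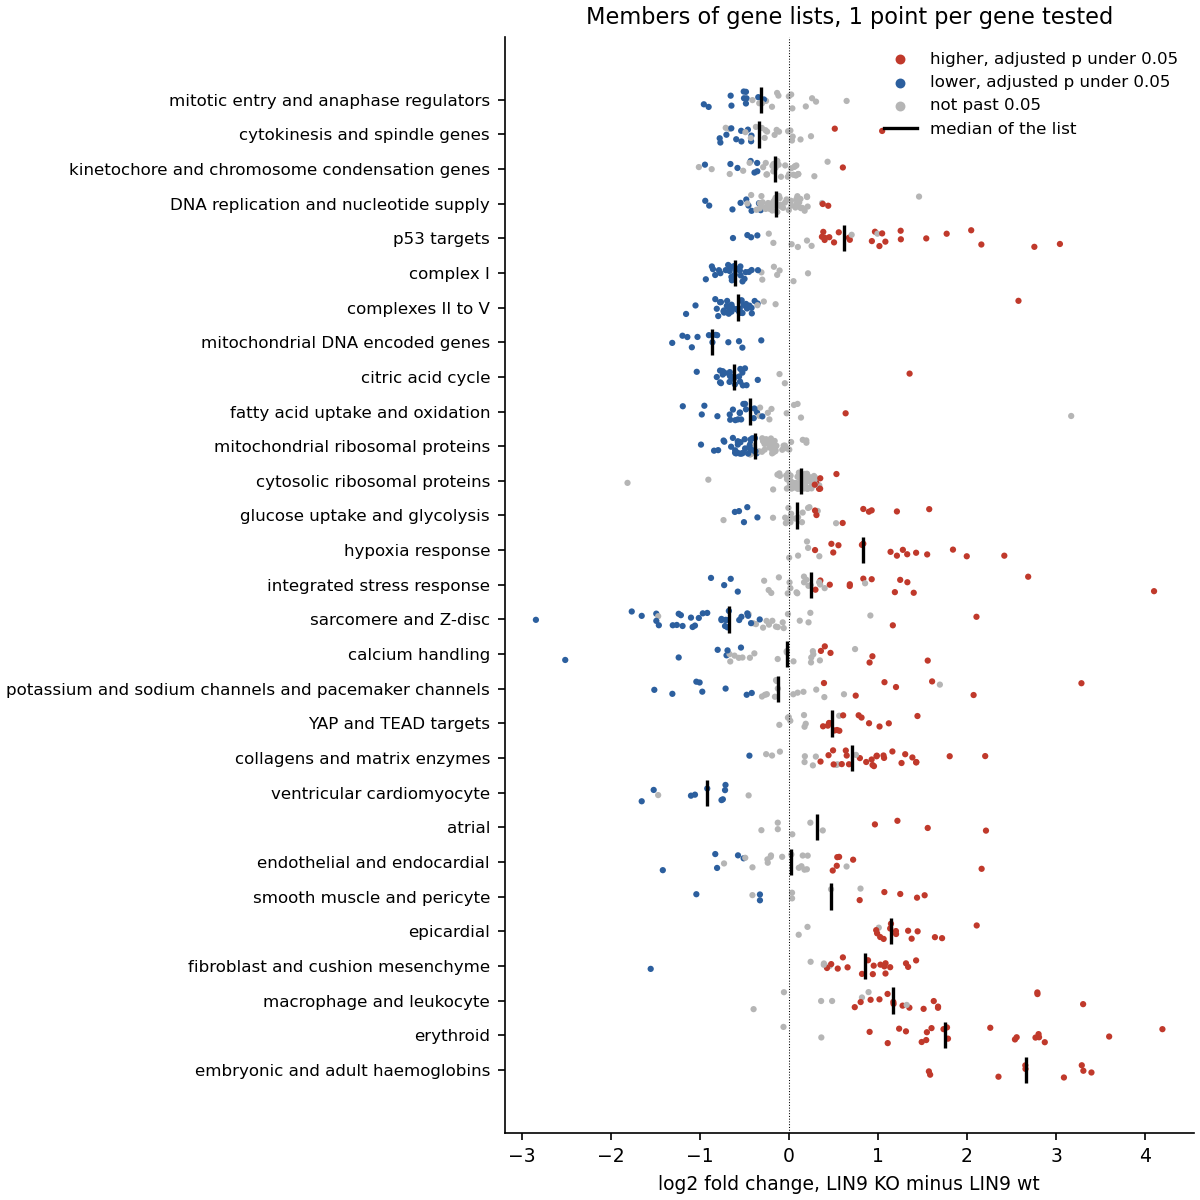
Log2 fold change (LIN9 KO minus LIN9 wt) of each tested member of 29 gene lists, with members past an adjusted p of 0.05 in red (higher) or blue (lower), the others in grey, and a black line at the median of the list. The medians of the mitochondrial, sarcomere, ventricular and mitotic lists lie left of 0, the mitotic ones closer to it, and those of the p53, hypoxia, matrix, epicardial, macrophage and red blood cell lists lie to the right.

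Of 29 cardiac transcription factors, 8 were lower and 5 higher (median -0.10), shares of 27.6% and 17.2% against 10.5% and 12.8% of all genes. Irx4, the factor that marks the ventricle, went from 115, 101 and 102 CPM to 47.0, 37.1 and 26.5 CPM (log2 fold change -1.52, standard error 0.14, adjusted p = 1.52e-08). Prdm16 (-1.08) and Hey2 (-0.74), factors of the compact wall, and Nkx2-5 (-0.52), whose promoter drives the Cre of both groups, also fell, and Gata5 rose by 1.01 on the log2 scale. Gata4 (-0.03), Tbx5 (0.21) and Tbx20 (-0.10) did not pass the threshold. The count of 5 higher factors was 3 without LIN9 wt replicate 1 or LIN9 KO replicate 1 and 2 without LIN9 wt replicate 2.

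Of 13 genes of the trabeculae, the inner layer of the wall, 6 were lower and 5 higher. The natriuretic peptide Nppb went from 128, 134 and 122 CPM to 410.2, 293 and 277 CPM (1.35, standard error 0.14, adjusted p = 1.19e-06). Nppa, for which 61.5% of the exonic length lies under other genes whose reads cannot be told apart from it without strand, rose by 1.76 on the log2 scale. Irx3 (-1.14) and Cpne5 (-0.99) fell. Of 7 genes of the compact layer, 2 were lower, Mycn (-0.85) and Hey2, and 2 were higher, Fgfr1 (0.75) and Hes1 (0.58), the latter not without LIN9 wt replicate 3 or LIN9 KO replicate 1. Of 10 atrial genes, 4 were higher and 0 lower. Clu, clusterin, went from 176, 156 and 161 CPM to 901, 814 and 569.7 CPM (2.21, standard error 0.14, adjusted p = 5.9e-10), and Dkk3 (1.22) and Bmp10 (0.97) also rose, while the atrial light chains Myl7 (0.24) and Myl4 (-0.12) and the atrial factor Nr2f2 (0.04) did not pass the threshold.

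YAP is the transcriptional coactivator that the Hippo pathway holds back, and it acts with TEAD factors. Of 22 YAP and TEAD targets, 14 were higher and 0 lower (median 0.48), and the count of 14 was 9 without LIN9 wt replicate 2. Myof (1.44), Axl (1.12) and Ptpn14 (1.02) had the largest rises. Cyr61, a secreted matricellular protein, went from 50.2, 50.0 and 40.1 CPM to 109, 81.0 and 72.0 CPM (0.90, standard error 0.13, adjusted p = 9.79e-06). Ankrd1 (-0.01) and Lats2 (0.00) did not pass the threshold. Of 16 genes of the Hippo pathway, 2 were higher, Vgll3 (1.42) and Wwtr1 (0.43), which encodes TAZ, and 1 was lower, shares of 12.5% and 6.25% that lie no higher than those of all genes (12.8% and 10.5%). The lower gene was Tead4, which went from 16, 14.4 and 8.65 CPM to 5.59, 6.23 and 6.71 CPM (-1.07, adjusted p = 0.00318). Without LIN9 KO replicate 1 or 3, 2 genes of this list were lower, as with the replicate block. Yap1 was at 0.22 on the log2 scale (adjusted p = 0.161) and Sav1 at -0.21 (adjusted p = 0.225). Of 41 genes of growth factor signalling, 11 were higher and 7 lower (median 0.22), shares of 26.8% and 17.1% against 12.8% and 10.5% of all genes. Bmp6 went from 25.6, 20.9 and 20.4 CPM to 70.7, 74.8 and 66.0 CPM (1.66, standard error 0.15, adjusted p = 5.66e-09), Bmp4 changed by 1.33 and Tgfb3, with other genes over 12.4% of its exonic length, by 1.01. Erbb2, a receptor gene of neuregulin signalling, fell (-0.59) while the neuregulin gene Nrg1 rose (0.53).

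Markers of ventricular cardiomyocytes were lower in LIN9 KO and those of several, but not all, other cell types were higher. In bulk tissue, fewer cells of a type and less RNA per cell cannot be told apart, which holds for every change given here. Of 11 ventricular cardiomyocyte markers 9 were lower and 0 higher (median -0.92), and their summed level was 26088 to 27491 CPM in LIN9 wt and 13076 to 15040 CPM in LIN9 KO libraries. Of 9 haemoglobins 9 were higher (median 2.66), and their sum was 4229 to 5316 CPM in LIN9 wt and 20998 to 38747 CPM in LIN9 KO libraries. Hbb-y, an embryonic beta globin, went from 1451, 1121 and 1219.9 CPM to 8444, 12411 and 16207 CPM (log2 fold change 3.29, standard error 0.43, adjusted p = 0.000732). LIN9 KO replicate 3 had the most and replicate 1 the least. The adult alpha globin Hba-a2, which shares reads with its near-identical copy Hba-a1, changed by 2.66. Its call and that of Hbb-bh1 were lost when the replicate number was a block on the 6 libraries alone, where 4 of the 9 remained past the threshold. Of 22 other erythroid genes 20 were higher and 0 lower (median 1.76), and Slc4a1, the anion exchanger of the red cell membrane, went from 32.2, 31.2 and 29.4 CPM to 206, 157 and 271 CPM (2.77, standard error 0.22, adjusted p = 3.36e-06).

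Of 23 macrophage and leukocyte genes, 16 were higher and 0 lower (median 1.17), and their sum was 189.5 to 198 CPM in LIN9 wt and 379.9 to 429.9 CPM in LIN9 KO libraries. Csf1r, the receptor that maintains macrophages, went from 28.9, 23.0 and 24.2 CPM to 62.8, 43.3 and 48.1 CPM (1.02, adjusted p = 0.000237), and the cathepsin gene Ctss changed by 1.63. Of 17 epicardial genes 14 were higher and 0 lower (median 1.15). Wt1, the factor that marks the epicardium, went from 41.9, 35.3 and 38 CPM to 90.7, 101 and 108 CPM (1.38, standard error 0.12, adjusted p = 2.36e-09), and the keratins Krt8 (2.11) and Krt18 (1.72) also rose, while Tbx18 (0.11) did not pass the threshold. Of 22 fibroblast and cushion genes 17 were higher and 1 lower (median 0.86). Col1a1, of type I collagen, went from 588, 509 and 467 CPM to 1592, 1612 and 1008 CPM (1.43, standard error 0.17, adjusted p = 3.95e-05), and Mfap5, of elastic fibres, was the lower member (-1.55). Of 36 collagens and matrix enzymes, 25 were higher and 1 lower (median 0.71), Lama4 being the lower one (-0.44), with 2 lower without LIN9 KO replicate 1. Col6a1, of type VI collagen (1.81), and Bgn, the proteoglycan biglycan (1.43), were among the higher ones.

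The endothelial genes did not move as 1 group. Of 27, 6 were higher and 5 lower (median 0.03), with 9 lower without LIN9 KO replicate 1. With all libraries the shares were 22.2% and 18.5%, against 12.8% and 10.5% of all genes. Vwf, von Willebrand factor, went from 17.6, 21.9 and 18.7 CPM to 95.6, 96.1 and 69.0 CPM (2.16, standard error 0.19, adjusted p = 2.36e-07), and Emcn (0.72) and Pecam1 (0.56) also rose, while Aplnr (-1.41), Kdr, the VEGF receptor (-0.83), and Klf2, induced by flow (-0.81), fell. Their summed level was 1979 to 2016 CPM in LIN9 wt and 2094 to 2491 CPM in LIN9 KO libraries. Of 13 smooth muscle and pericyte genes 5 were higher, among them Notch3 (1.44) and Pdgfrb (1.25), and 3 lower, which became 1 without LIN9 wt replicate 3 or LIN9 KO replicate 2 and 0 without LIN9 KO replicate 3. Of 8 neural genes 2 were lower and 0 higher, and their sum was 231 to 255 CPM in LIN9 wt and 98.1 to 104 CPM in LIN9 KO libraries. Most of it was Ednrb, an endothelin receptor also made by other cells, which went from 210.4, 225 and 217 CPM to 86.8, 77.7 and 82.0 CPM (-1.41, adjusted p = 1.88e-10). Of 18 interferon and inflammatory genes 6 were higher and 0 lower, among them Oasl2 (1.65) and H2-K1 (1.52). Whether the shares of cell types changed, and how far that takes part in the changes of the other gene groups, was not tested. The plot of summed markers shows these sums by library.

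**Figure D4:**
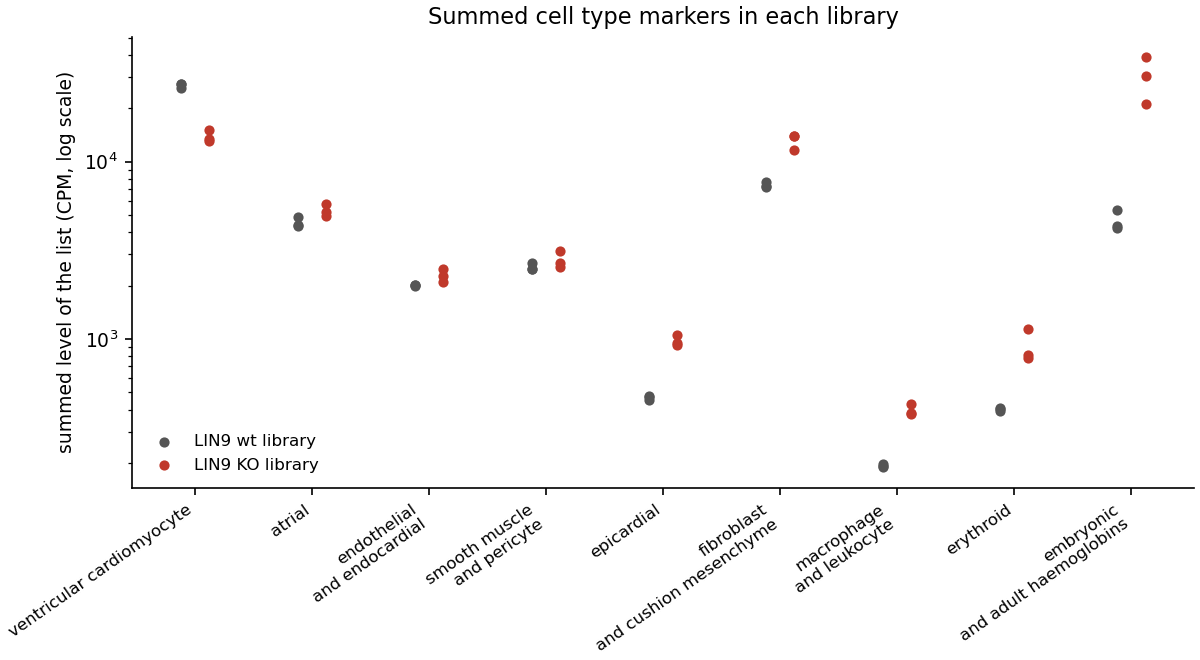
Summed level of 9 lists of cell type markers in each library in CPM (log scale), with LIN9 wt in grey and LIN9 KO in red. Ventricular cardiomyocyte markers are lower in all 3 LIN9 KO libraries, the atrial, endothelial, epicardial, fibroblast, macrophage, erythroid and haemoglobin sums are higher in all 3 than in any LIN9 wt library, by little for the atrial and endothelial lists, and the smooth muscle sums overlap.

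The first experiment compared the same genotypes at the same stage in 6 libraries of its own, with 9485599 to 9615274 counts each, and 4131 of 19752 genes (20.9%) passed the threshold there, 11.1% of all genes as higher and 9.78% as lower. Both comparisons tested 17656 genes. Of these, 4102 were called in the second and 4078 in the first experiment, 2621 in both with the same direction (63.9% of the calls of the second and 64.3% of those of the first) and 0 with opposite directions. Of the 4102 calls of the second experiment, 4014 (97.9%) had the same sign in the first, against 77.6% of all genes. Over the 3695 genes called in the second experiment with at least 5 CPM, Pearson's r of both log2 fold changes was 0.93, across genes that are not independent of each other.

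The difference of the LIN9 effect between the experiments was tested on 17505 genes as an interaction in edgeR. At an adjusted p under 0.05, 0 genes differed (0%), the smallest adjusted p was 0.952, and 911 genes (5.2%) had an unadjusted p under 0.05. DESeq2 gave 0 genes as well, with 610 at an unadjusted p under 0.05. A replicate block also gave 0, with 1422 genes at an unadjusted p under 0.05 and a smallest adjusted p of 0.0704. Leaving out single libraries gave 0 genes each time, with a smallest adjusted p between 0.148 and 1.00. In the first experiment, leaving out LIN9 KO replicate 1 left 576 genes at an unadjusted p under 0.05 and leaving out LIN9 KO replicate 3 left 1398. The smallest p-values of the difference belonged to Atp7b, a copper transporter, Lactb, Adam11, Acacb and Trerf1. Atp7b went from 3.66, 4.8 and 4.84 CPM to 16.1, 18.7 and 12.3 CPM in the second experiment (1.82, standard error 0.29) and had 0.36 in the first. Adam11 was at 0.22 in the second and -0.57 in the first experiment. A difference that misses the threshold does not show that effects were equal. For Lin9 itself the log2 fold change was -0.80 in the second and -0.31 in the first experiment (adjusted p = 0.13 there, and 0.952 for the difference). Mitochondrial mRNAs had a median of -0.86 with 13 of 13 lower in the second and of -0.40 with 7 lower in the first experiment. The hypoxia list had 15 higher genes here and 8 in the first experiment (median 0.66), and of the 15 both Vegfa (0.67) and Ndrg1 (1.73) did not pass the threshold in the first. Regulators of mitotic entry had 11 lower and 0 higher genes here and 10 lower and 2 higher in the first experiment, with 8 called in the same direction in both. The DNA replication list had 9 lower and 2 higher genes here and 8 lower and 2 higher in the first experiment, with 5 called in the same direction in both. Of the 197 named genes plotted against each other, 196 had the same sign in both experiments, and the exception was Adam11. The plot leaves out the Y-linked genes Eif2s3y and Ddx3y, of which Ddx3y had -0.32 in the second and 0.34 in the first experiment.

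**Figure D5:**
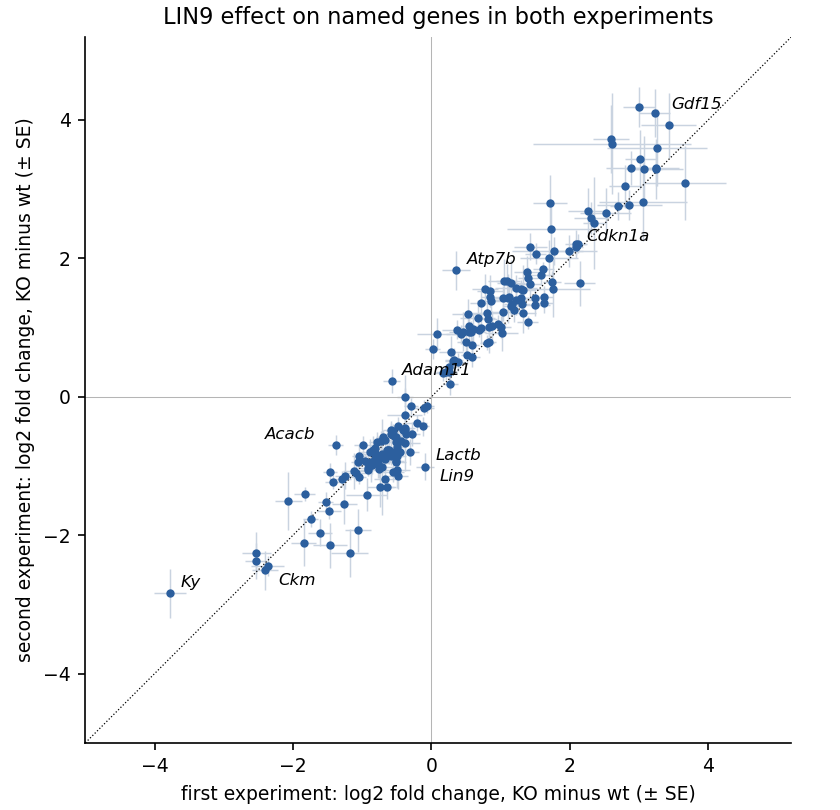
Log2 fold change (LIN9 KO minus LIN9 wt) of 197 named genes in the first experiment (x axis) and in the second (y axis), with standard errors as bars and the line of equal values dotted. The points follow the line from Ky to Gdf15, with 196 of the same sign, and Atp7b, Lactb, Acacb and Adam11 lie off it, of which 0 passed the test of the difference.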

How the data were processed

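RNA-seq counts of E13.5 ventricles were used. The counts are whole numbers per Ensembl gene, as deposited by the authors, who mapped reads with TopHat 2.1.0 and BOWTIE2 to mm10, brought libraries down to equal mappable reads and counted with summarizeOverlaps (GRCm38.p6). The strand setting is not given in the sources used here. The authors' tables of fold changes and p-values were not used, nor was the ChIP-seq. All columns of library values had a label (0 were unused), and 4 repeated identifiers were kept once.

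Genes with more than 1 count on average in the 12 libraries of the second experiment, 17675 in all, entered a quasi-likelihood fit of 4 group means in edgeR (version 4.0.16 under R 4.3.3, TMM scaling, robust estimates), with Benjamini-Hochberg adjustment over all of them and a threshold of 0.05. DESeq2 (1.42.0) was an alternative, as were other scalings and filters, the 6 libraries alone, a replicate block and leaving out each library. In 5 simulations on the means of these libraries, the main test recovered 78.4% of genes lower by 1 and 90.0% of genes higher by 1 on the log2 scale, 23.6% and 27.2% at a change of 0.5, and 6.49% of its calls were false. Each size and direction of change was given to 50 of the 17675 genes, far fewer than the 4103 called in the data. An adjusted p under 0.05 therefore asked for a smaller unadjusted p there, and these shares do not carry over to the data.

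The main fit did not pair the libraries, and replicate numbers were taken as pairs only in the alternatives with a replicate block. Deviations from the group means of same-numbered libraries correlated at 0.600, 0.217 and 0.313 over the 13160 genes with a mean count above 10, and at 0.393, 0.0891 and 0.170 over all genes tested. The pairing comes from these values alone, since no source names a shared litter or batch, and LIN9 wt replicate 2 correlated more with LIN9 KO replicate 3 (0.265).

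The 48 gene lists and the comparison itself were chosen with earlier results of these data known. Their members in the table were 1174 genes, of which 1101 were tested. The other 73 had a mean count of at most 1, and 52 of them, among them Acta1, Actc1, Tnnc1, Pln and Prc1, are listed at 0 in all 12 libraries. Genes were named by a rule, which takes Lin9, the cell cycle genes with qPCR primers, the 10 largest rises and falls among called genes without overlap of the groups and with a mean of 5 CPM or more, up to 4 members of each list by size of change, and the 5 smallest p-values of the difference between experiments. Some genes that the rule takes are not reported here. Other list members given with a value were named after their values had been seen. Promoter windows were read from RefSeq (GRCm38.p6), and motif searches on both strands ran in Python (3.11.15).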

Additional observations from a re-analysis of the deposited data

How the results depend on the processing

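The number of genes called was 4103, and between 3019 (DESeq2) and 5456 (replicate block on the 6 libraries alone) under the other settings. It was 4093 and 4072 with RLE and upper-quartile scaling, 4321 without a filter, 3957 at a mean count above 10, 3435 on the 6 libraries alone, 3899 without robust estimates, and 3040 to 4120 with 1 library left out. Without LIN9 KO replicate 3, the library high in 18S RNA, it was 3844. The added alternative of leaving that library out, chosen after seeing the data, is the same fit. The Lin9 log2 fold change stayed negative in all of these, between -0.71 and -0.91. The test of the difference between experiments gave 0 genes in all of its alternatives. The replicate block gave 4370 genes and changed no call of the 199 genes named by rule. On the 6 libraries alone it added Aspm and Cenpf and lost Hba-a2 and Hbb-bh1. The directions that turned were those of genes that were not called. With 1 library left out, the Gas2l3 log2 fold change ranged from -0.18 to 0.0614 (0.0614 without LIN9 KO replicate 1, 0.0368 without LIN9 KO replicate 3 and 0.0057 without LIN9 wt replicate 1 against -0.01 with all libraries), the Casc5 log2 fold change from -0.63 to 0.18 (0.18 without LIN9 KO replicate 1 and 0.0124 without LIN9 wt replicate 3), and the Ddx3y log2 fold change from -1.27 to 0.23 (0.23 without LIN9 KO replicate 1). The cause was not tested. In the simulated data, where far fewer genes were changed than were called here, changes of 0.5 on the log2 scale were mostly missed.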

Other observations

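Among genes ranked 11 to 20 by size of change in each direction, called with at least 5 CPM and without overlap, some were not described above. Among the falls were both Popeye domain genes of this rank, Bves, a cyclic AMP-binding protein of heart muscle, from 211, 248 and 238 CPM to 73.3, 59.0 and 69.3 CPM (log2 fold change -1.79, adjusted p = 7.58e-13), and Popdc3 (-1.80). Mov10l1 (-1.88), Sox3 (-1.91), the muscle kinase Srpk3 (-1.75) and Nr3c2, the mineralocorticoid receptor (-1.71), also fell. Among the rises were Sost, the Wnt inhibitor sclerostin, from 9.64, 7.88 and 5.19 CPM to 88.7, 56.7 and 43.6 CPM (3.05, adjusted p = 3.19e-07), Slc30a10, a manganese exporter (2.78), and Cacna1e, a calcium channel (3.13).

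Some rises began from almost no reads and stayed under the mean of 5 CPM, and these genes were named after their values had been seen. Sncb, the synuclein beta gene of neurons, was at 0 in all 3 LIN9 wt libraries and at 6.57, 7.22 and 5.97 CPM in LIN9 KO. Rbp4, the retinol carrier, was at 0.332, 0 and 0 CPM against 9.86, 10.5 and 4.85 CPM, and Gdf7 at 0.332, 0 and 0.346 CPM against 8.87, 9.51 and 4.85 CPM.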
